A study of Caenorhabditis elegans with 2 samples.

Results

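The RNA components of RNase P and RNase MRP, the Y RNA and the selenocysteine transfer RNA of Caenorhabditis elegans are encoded by rpr-1, mrpr-1, yrn-1 and K11H12.t1. These 4 genes were taken by name from the annotation of 46890 nuclear genes, as known polymerase III genes with upstream promoter elements in animals. The rule sets no threshold on a binding value, but the genes were proposed with earlier results of these data in view. Binding of SNPC-4 at them was measured by chromatin immunoprecipitation and sequencing (ChIP-seq) in 1 group of 2 biological replicates. Both replicates were whole animals of strain OP179 at L4, the final larval stage before adulthood, with the sexes pooled. The strain carries the mutation unc-119(ed3) on chromosome III and the transgene insertion wgIs179, which supplies snpc-4 tagged with eGFP, a green fluorescent protein. Both replicates share this mutation and this transgene. The labels give snpc-4 as the antibody target and describe the experiment as ChIP-seq against eGFP-snpc-4. No untagged or input control was analysed here. With 1 group there was no comparison between conditions and no test over samples, so each value is given as a description in both replicates. All cells of the animal were pooled, so binding in a few tissues and weaker binding in many cannot be told apart.

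SNPC-4 is the worm relative of the largest subunit of SNAPc, the complex that activates small nuclear RNA (snRNA) genes. It binds a proximal sequence element upstream of these genes. In vertebrates, promoters with this element alone are used by RNA polymerase II, and those that add a TATA box are used by RNA polymerase III. Most transfer RNA (tRNA) genes are instead recognised through the A and B boxes inside the gene, which are bound by the factor TFIIIC. RNase P trims the leader from precursor tRNAs, and the related RNase MRP processes precursor ribosomal RNA. Y RNA is bound by the Ro protein, ROP-1 in the worm, and the selenocysteine tRNA reads UGA codons as selenocysteine. In vertebrates the genes of these 4 RNAs are known for polymerase III promoters that lie upstream of the gene.

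The promoters of mrpr-1, yrn-1 and K11H12.t1 are shown because these letters lie under the SNPC-4 peaks and are compared between the genes. An snRNA gene of 101 bp with TATA letters, F54D8.7, and an snRNA gene without them, F38E11.10, are shown for comparison. F54D8.7 is the only bound snRNA gene with both TATA letters and the element described below, and F38E11.10 has the strongest peak among the bound snRNA genes with the element but without TATA letters. Each run is the 100 bp upstream of the annotated 5′ end on the gene's own strand, read from the RefSeq genome sequence of WBcel235, which is the sequence of ce11. The first capitals mark the 8 bp aligned with the most shared 8-letter run of snRNA promoters, CGGAACCC, and the second capitals mark the TATA letters, here TATAA or TATAT, or TATTA, starting 20 to 40 bp upstream. The intervals are chrII:7200133-7200232 on the plus strand for mrpr-1, chrIV:7499408-7499507 on the plus strand for yrn-1 and chrIV:658081-658180 on the plus strand for K11H12.t1. Those of the snRNA genes are chrIII:5080899-5080998 on the minus strand for F54D8.7 and chrIV:9444542-9444641 on the plus strand for F38E11.10.
mrpr-1: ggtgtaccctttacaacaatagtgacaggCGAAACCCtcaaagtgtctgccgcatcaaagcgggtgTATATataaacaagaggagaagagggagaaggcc
yrn-1: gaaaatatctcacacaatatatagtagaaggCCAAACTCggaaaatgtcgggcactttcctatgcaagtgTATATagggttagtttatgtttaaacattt
K11H12.t1: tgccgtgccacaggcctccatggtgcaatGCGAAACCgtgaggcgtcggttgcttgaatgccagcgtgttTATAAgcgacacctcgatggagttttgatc
F54D8.7: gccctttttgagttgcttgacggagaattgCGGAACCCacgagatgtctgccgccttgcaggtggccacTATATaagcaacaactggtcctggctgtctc
F38E11.10: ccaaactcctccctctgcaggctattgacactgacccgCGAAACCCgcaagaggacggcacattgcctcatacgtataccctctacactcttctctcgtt
The 3 member promoters and F54D8.7 hold the aligned 8 bp near 70 bp upstream and TATA letters near 30 bp upstream. F38E11.10 holds the first of these at 62 bp upstream and has none of the 3 TATA runs in that window, although it holds the shorter letters TATA there.

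Each of the 4 genes had a binding summit within 300 bp of its 5′ end in the authors' optimal list, in which peaks were selected by irreproducible discovery rate (IDR) from both replicates. This list holds 381 peaks. Of all annotated nuclear genes, 0.874% (410 of 46890) had such a summit, and of protein-coding genes 0.661% did. The share was 5.89% for the other 611 nuclear tRNA genes and 31.5% for 89 snRNA genes, counted without the spliced leader and SmY RNA genes. It was 77.8% (14 of 18) for the genes of the spliced leader SL2. Each of the 4 genes also had 1 summit within 300 bp in the list of each replicate and in the list the authors made from pooled replicates. These lists are longer, and 13.6%, 20.1% and 23.7% of all nuclear genes had a summit within 300 bp in replicate 1, replicate 2 and the pooled list.

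rpr-1 (WBGene00045238) lies on chromosome I, 13463955 to 13464207 on the plus strand of ce11, inside an intron of ints-8, a subunit gene of the Integrator complex, on the opposite strand. Its peak signal, on the authors' scale, was 758.8 in the IDR list, 399.7 in replicate 1 and 360.9 in replicate 2. The peak ranked 9 by signal in all 3 lists, which hold 381, 11042 and 30000 peaks. This gene for the RNase P RNA thus had the strongest peak of the 4 in both replicates. The peaks ranked just above and just below it in the IDR list lay at the spliced leader gene sls-2.2 and the small nucleolar RNA (snoRNA) gene F01D5.12.

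mrpr-1 (WBGene00045095) lies on chromosome II, 7200233 to 7200418 on the plus strand, and overlaps no other annotated gene. Its signal was 422.0 in the IDR list, 192.1 in replicate 1 and 228.6 in replicate 2, with ranks of 24, 26 and 19. Both neighbours in rank were peaks at snoRNA genes, Y74C9A.6 above and F47G4.9 below. The 5′ end of the protein-coding gene pcrg-1 lay 342 bp from the mrpr-1 summit and that of E04F6.6 642 bp, both outside the 300 bp window. The nearest other IDR peaks were 232 kb and 875 kb away.

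K11H12.t1 (WBGene00023106), the gene of the selenocysteine tRNA, lies on chromosome IV, 658181 to 658266 on the plus strand, in an intron of K11H12.8 on the same strand. Its signal was 295.1 in the IDR list, 111.0 in replicate 1 and 182.1 in replicate 2, with ranks of 35, 43 and 32. The peak ranked next above it lay at the spliced leader gene sls-2.3 and the peak next below at the lysine tRNA gene M01E5.t1. Its nearest other IDR peak was 3.17 kb away, with the ribosomal protein gene rpl-15 as its closest gene and a signal of 68.6.

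yrn-1 (WBGene00006967) lies on chromosome IV, 7499508 to 7499612 on the plus strand, in an intron of F55G1.15 on the opposite strand, and overlaps an exon of the antisense non-coding RNA gene F55G1.20. Its signal was 30.35 in the IDR list, 15.88 in replicate 1 and 13.96 in replicate 2, with ranks of 199, 150 and 426. The median signal of the IDR list was 31.7 and its range 21.4 to 1230, so the peak of the Y RNA gene lay near the middle of the list by rank. In replicate 2 it fell outside the 381 strongest peaks, whose lowest signal was 14.6. The 5′ end of F55G1.20 lay 149 bp from the yrn-1 summit, inside the window, so this peak is counted at both genes. The peaks next in rank lay at the tRNA gene F02H6.t1 and, 313 bp from the summit, at sqd-1.

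The order of signal was rpr-1, mrpr-1, K11H12.t1 and yrn-1 in each replicate list, and also in the IDR and pooled lists, which are made from the same replicates. The ranks of rpr-1, mrpr-1 and K11H12.t1 differed by 0, 7 and 11 places between the replicates, and that of yrn-1 by 276. Among the 50 strongest IDR peaks the median difference in rank between replicates was 4 places (quartiles 1.25 and 7). Among the IDR peaks ranked 150 to 250, 99 had a matching summit at most 200 bp away in each replicate, and their median difference was 220 places (quartiles 102 and 419). The difference at yrn-1 lay inside these quartiles, and that at K11H12.t1 was above the upper quartile of the strong peaks. Neither the scale of the signal nor the read depth is known, so signals were compared within a list only.

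**Figure D1:**
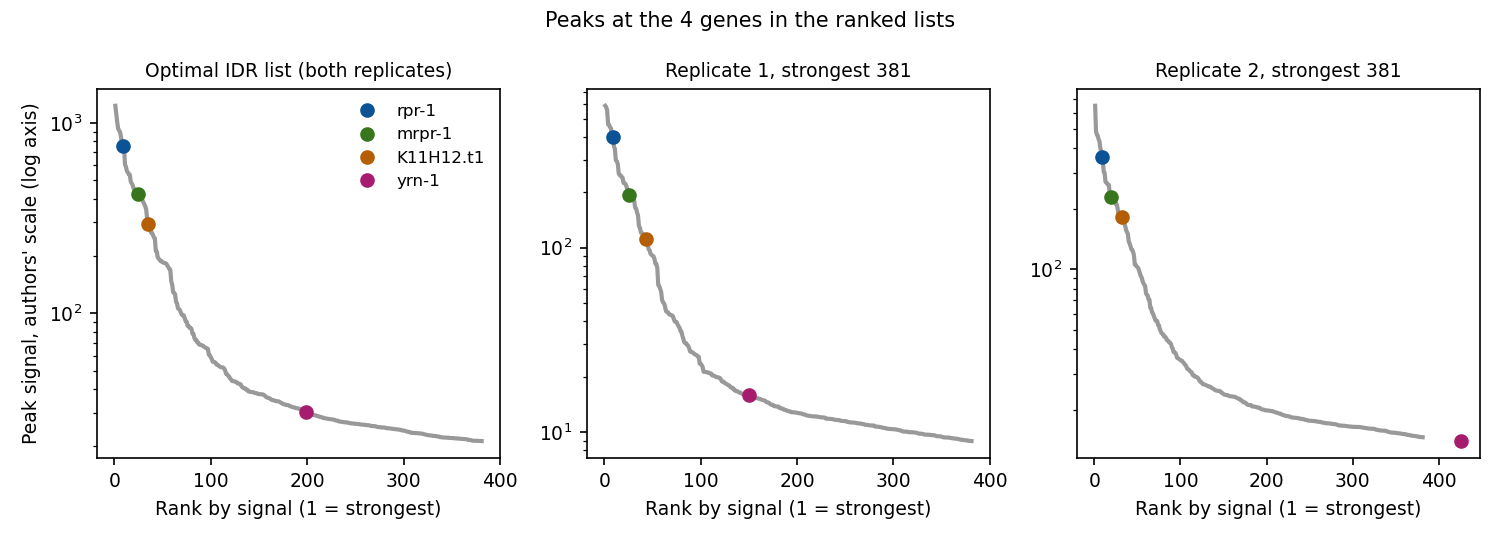
Peak signal on the authors' scale (log axis, with its own range in each panel) against rank in the optimal IDR list and in the 381 strongest peaks of each replicate, as grey lines, with the peaks at the 4 genes as coloured points. rpr-1, mrpr-1 and K11H12.t1 lie at ranks 9 to 43 in all 3 panels, and yrn-1 lies at 199, 150 and 426, the last beyond the end of the line.

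The summits lay upstream of the 5′ end at all 4 genes in every list. Relative to the 5′ end, the rpr-1 summit lay at −27 bp in the IDR list, −27 bp in replicate 1 and −17 bp in replicate 2. That of mrpr-1 lay at −26, −29 and −39 bp, and that of yrn-1 at −14, −14 and −45 bp. The K11H12.t1 summit lay at −68, −67 and −68 bp. It was the farthest upstream of the 4 in each list and differed by 1 bp between the replicates. The replicates differed by 10 bp at both rpr-1 and mrpr-1 and by 31 bp at yrn-1. The IDR peaks were 355 bp wide at rpr-1, 332 bp at mrpr-1, 340 bp at yrn-1 and 276 bp at K11H12.t1, around a list median of 340 bp that 290 of the 381 peaks had. Each peak covered both the upstream letters and the start of the gene.

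The median summit offset was −54.5 bp for the 28 bound snRNA genes, −49 bp for the 14 bound SL2 genes, −47 bp for the 39 bound snoRNA genes and −15.5 bp for the 36 other bound tRNA genes. The IDR summits of rpr-1, mrpr-1 and yrn-1 lay closer to the gene than the median snRNA, SL2 or snoRNA summit, and that of K11H12.t1 lay farther upstream. In replicate 2, yrn-1 at −45 bp and mrpr-1 at −39 bp were nearer to those medians. The 6 bound snRNA genes 101 to 102 bp long, a class formed after the promoters were read, all held TATA letters. Their IDR summits had a median offset of −58 bp and a range of −80 to −44 bp. In the IDR list rpr-1, mrpr-1 and yrn-1 lay outside this range and K11H12.t1 inside it. Measured from the start of the 8 bp aligned with CGGAACCC, the IDR summits of rpr-1, mrpr-1 and yrn-1 lay 42, 45 and 55 bp toward the gene, and that of K11H12.t1 lay 3 bp toward it. For 14 bound snRNA genes with the element this distance had a median of 10 bp and a range of −15 to 37 bp. For bound genes with the element it ranged from −17 to 75 bp at 18 snoRNA genes and from 2 to 89 bp at 9 SL2 genes, ranges that take in all 4 genes. In replicate 1 the same distances were 42, 42, 55 and 4 bp, against a range of −3 to 113 bp at the snRNA genes. In replicate 2 they were 52, 32, 24 and 3 bp, against −8 to 40 bp. Only rpr-1 lay beyond the snRNA range in both the IDR list and replicate 2, and none of the 4 did in replicate 1.

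**Figure D2:**
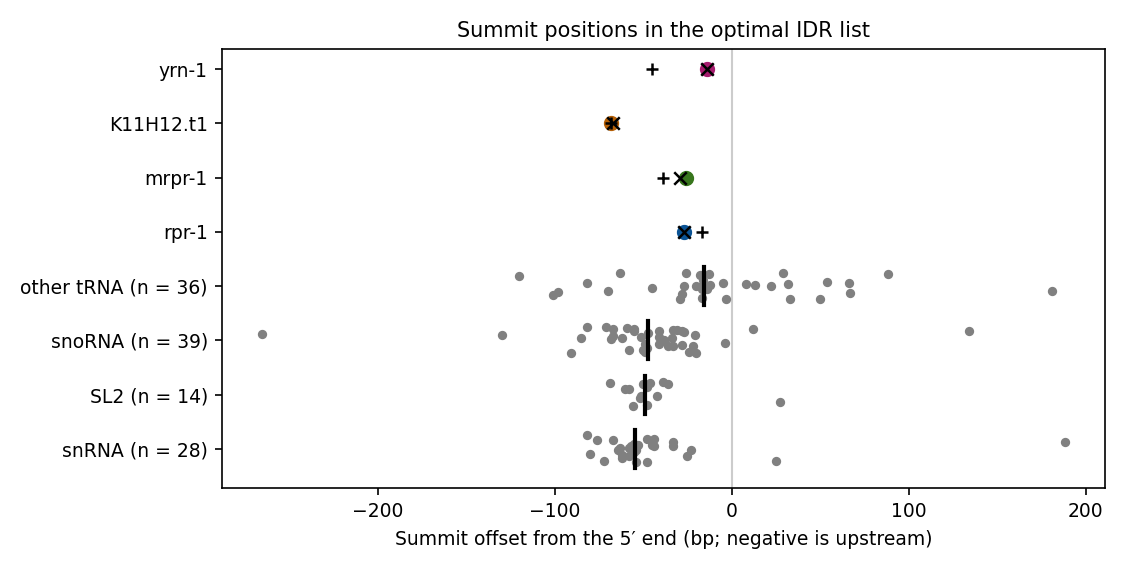
Distance of the summit from the annotated 5′ end (bp, negative is upstream) in the optimal IDR list for the 4 genes (coloured points) and for bound genes of other classes (grey points, black bars at the medians). Crosses and plus signs give replicates 1 and 2 of the 4 genes. K11H12.t1 lies at −68 bp while the other bound tRNA genes have a median of −15.5 bp.

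The upstream element was described from reference sequence alone, with no binding value. CGGAACCC was the 8-letter run found in the most snRNA promoters, 30 of 119 distinct ones, a set that here includes spliced leader and SmY genes annotated as snRNA. Its 51 matches with up to 1 mismatch, widened by 8 bp on each side, gave a matrix of 24 bp. A promoter was counted as holding the element if its best match scored at least 29.1, the lowest quartile of these 51 matches. On the gene strand, 83 of 46886 promoters passed (0.177%), and so did 2 of the 4 genes. The share was 28.1% for snRNA genes (25 of 89) and 55.6% for SL2 genes (10 of 18). It was 66.7% for SmY genes (8 of 12) and 6.4% for snoRNA genes (22 of 344). None of 12 SL1 genes and none of 611 other tRNA genes passed. Among bound genes, 14 of 28 snRNA genes and 18 of 39 snoRNA genes passed. The matrix was made from snRNA, spliced leader and SmY promoters, so the shares of these classes are partly fixed by its making. rpr-1 scored 41.5, and 3 promoters in the genome, itself included, scored as high. mrpr-1 scored 30.8, which 65 promoters reached.

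yrn-1 and K11H12.t1 did not pass. yrn-1 scored 16.6, a score reached by 131 promoters (0.279%), and K11H12.t1 scored 3.76, reached by 779 promoters (1.66%). The aligned 8 bp differ from CGGAACCC at 0 positions in rpr-1, 1 in mrpr-1, 3 in yrn-1 and 3 in K11H12.t1. All 4 best matches nevertheless fell within 3 bp of each other, starting at −69 bp in rpr-1 and yrn-1 and at −71 bp in mrpr-1 and K11H12.t1. In K11H12.t1 a start 1 bp nearer the gene would match CGGAACCC itself better. The best score over the whole matrix lay at −71 bp. Of the 24 positions of the element, 16 were identical between rpr-1 and mrpr-1 and 16 between mrpr-1 and yrn-1. Only 11 were identical between rpr-1 and yrn-1. K11H12.t1 shared 10 or 11 positions with each of the others. With the 24 bp matrix K11H12.t1 ranked 20th among tRNA genes, and the highest score of another tRNA gene was 12.2. A matrix widened to 16 bp after the seed was a setting added after the promoters were read. With it K11H12.t1 scored 10.3, reached by 185 promoters (0.395%), and ranked 2nd among tRNA genes.

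The letters GTC began 15 bp after the start of the aligned 8 bp in all 4 genes. The first of these letters is the last position of the matrix, so it took part in placing the aligned 8 bp. The other letters lie outside the matrix. With the nearer start named above, K11H12.t1 would not have GTC at this place. The same letters stood there in 2.9% of all promoters and 65.2% of snRNA promoters. Because the triplet was picked out after the 4 promoters were read, these shares are a description only.

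**Figure D3:**
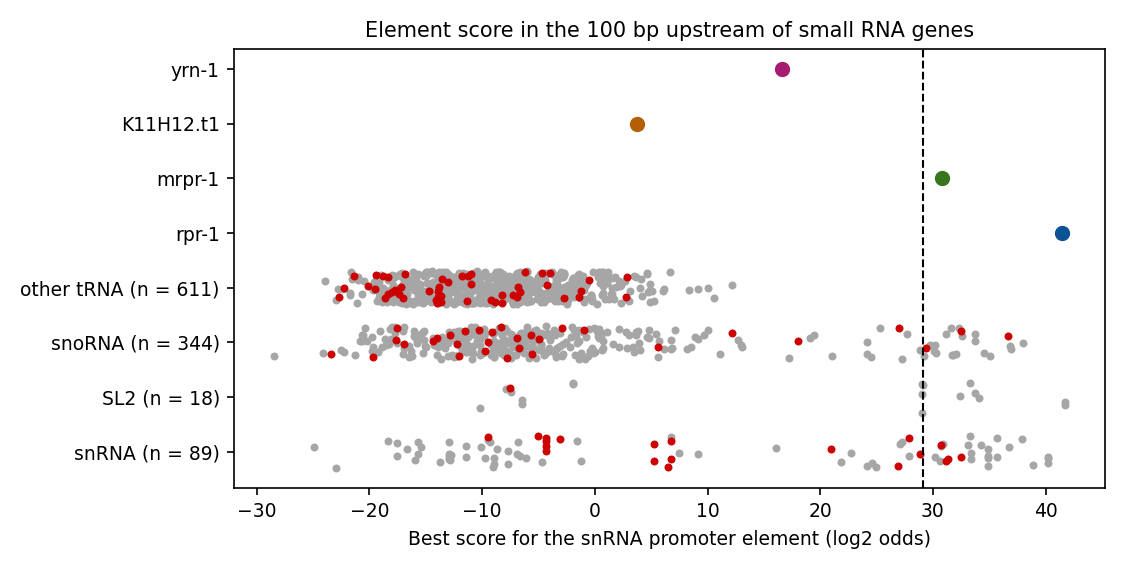
Best score for the snRNA promoter element (log2 odds against the base composition of all promoters) in the 100 bp upstream of the 4 genes (coloured points) and of other small RNA genes, with promoters that hold TATA letters in red and the others in grey. The dashed line is the threshold of 29.1, which rpr-1 and mrpr-1 pass. No tRNA gene reaches it, K11H12.t1 included.

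TATA letters were present in all 4 promoters, on the gene strand. They started at −30 bp in rpr-1, yrn-1 and K11H12.t1 and at −34 bp in mrpr-1. The same letters were found in 15.7% of all promoters and in 8.02% of the other tRNA promoters (49 of 611). Among snRNA genes they were found in 18 of 22 of those 101 to 102 bp long and in 2 of the other 67. This length class was formed after the promoters were read. The first TATA letter lay 30 to 34 bp after the last of the aligned 8 bp in the 4 genes.

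An aligned start between −71 and −69 bp, GTC 15 bp after it and TATA letters occurred together in 29 promoters of the genome (0.0619%), whatever the score. This combination was set from the 4 genes themselves, so that they hold it is no finding. The other 25 comprised 16 snRNA genes, all 101 or 102 bp long, and 9 genes of other kinds. No other tRNA gene held it. An IDR summit lay near 7 of the 25, of which 6 were snRNA genes. Their signals ranged from 82.8 at K09C6.12 to 1110 at W05B2.8, a range that takes in rpr-1, mrpr-1 and K11H12.t1 but not yrn-1. The seventh was lfor-2, a non-coding RNA gene with a signal of 23.4 and a summit at −136 bp.

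**Figure D4:**
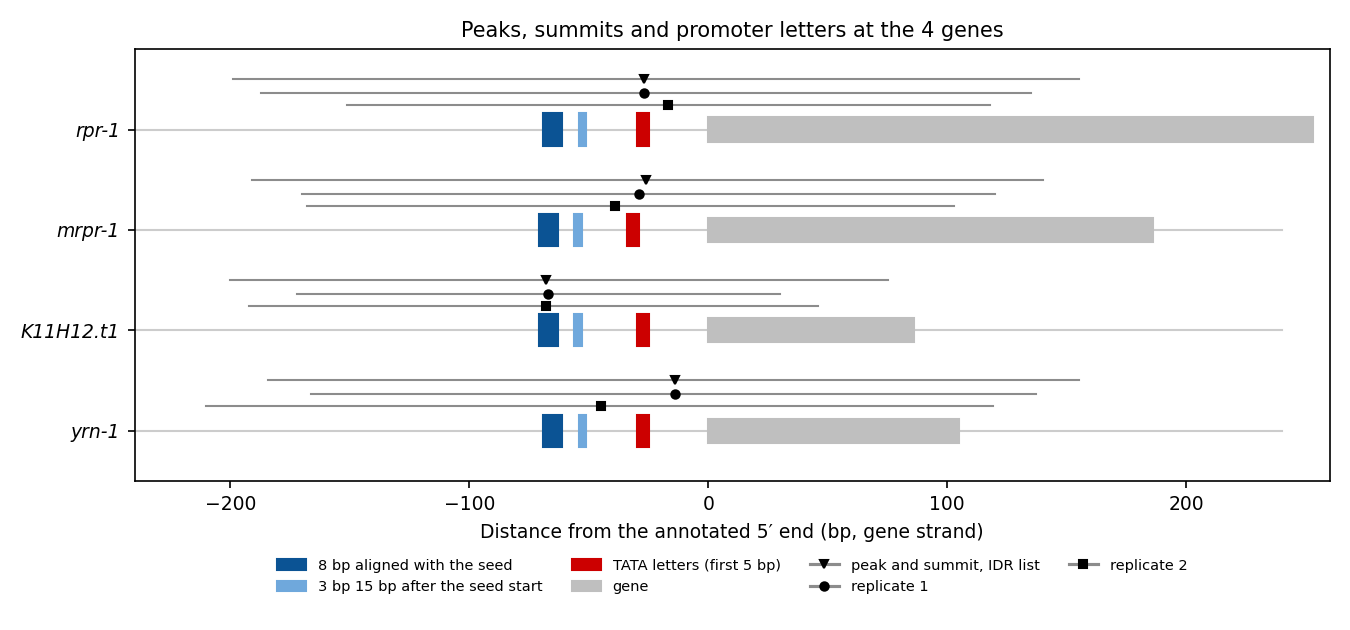
Positions of the upstream letters, gene bodies and binding at the 4 genes, in bp from the annotated 5′ end on the gene strand. Thin lines are peak intervals and black symbols their summits in the optimal IDR list and both replicates. The aligned 8 bp start at −71 to −69 bp and the TATA letters at −34 to −30 bp in every gene, and the summits of K11H12.t1 lie at the former.

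K11H12.t1 could be set beside the other nuclear tRNA genes. Of 611 others, 36 had an IDR summit within 300 bp, at 33 distinct peaks. By signal K11H12.t1 ranked 2nd among bound tRNA genes, below the isoleucine tRNA gene C27A2.t1 (signal 351) and above M01E5.t1 (275), whose peak is shared with the spliced leader gene sls-2.9. The summit at C27A2.t1 lay at −16 bp, with an element score of −15.4 and no TATA letters. Of the 36 others, 5 had a summit farther upstream than that of K11H12.t1, none held the element and 1 held TATA letters. The signals of these 5 were 22.5 to 25.6, against 295.1 at K11H12.t1.

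The B box, the internal tRNA promoter sequence bound by TFIIIC, was present in K11H12.t1 without a mismatch from position 65 of the gene. The gene is shown with the B box in capitals, from chrIV:658181-658266 on the plus strand of WBcel235, RefSeq sequence.
K11H12.t1 gene: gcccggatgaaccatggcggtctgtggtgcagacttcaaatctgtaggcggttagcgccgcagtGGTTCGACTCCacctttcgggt
The gene thus holds a B box and TATA letters, while its upstream match to the snRNA element is below the threshold. Of the other tRNA genes, 87.6% held a B box with up to 1 mismatch. The best matches in yrn-1, rpr-1 and mrpr-1 had 2, 3 and 3 mismatches. The best A box match had 2 mismatches in mrpr-1 and K11H12.t1, starting at positions 75 and 56, and more in rpr-1 and yrn-1. In K11H12.t1 this match runs into the B box at position 65, so it does not show a separate A box. At up to 2 mismatches the A box was found in 97.7% of the other tRNA genes. K11H12.t1 is 86 bp long, against a median of 72 bp, and 12 other tRNA genes are longer.

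RNA polymerase III ends transcription at runs of T. TTTT started 1 bp after the annotated 3′ end of yrn-1, 2 bp after that of K11H12.t1 and 9 bp after that of mrpr-1. None started within 20 bp after rpr-1. When the last bases of the gene were counted too, a choice made after the sequences were read, a run started at the next-to-last base of both rpr-1 and mrpr-1. TTTT was found within 20 bp after 98.7% of the other tRNA genes and 39.4% of all genes. With the last bases of the gene counted, these shares were 98.9% and 43.0%. For snRNA genes 101 to 102 bp long the share was then 95.5%.

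The protein partners of these RNAs are encoded by genes that polymerase II transcribes. None of the 32 partner and factor genes found in the annotation had an IDR summit within 300 bp, against 0.661% of all protein-coding genes. At so low a share, a count of none among 32 genes is no result about them. The 32 genes comprised 4 genes of RNase P and MRP proteins, 4 of Ro and La proteins, 7 of the selenocysteine pathway, and 17 of SNAPc and polymerase III factors. In the longer pooled list, where 23.4% of protein-coding genes had a summit, 1, 3, 2 and 7 of them had one. The highest of these ranked 383 of 30000, at snpc-4 itself, which is also the transgene's gene. In the IDR list, 1 of the Ro and La genes had a summit within 1000 bp, and no other of the 32 did. The share of all protein-coding genes at 1000 bp is not given here, so this count is no result about them.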

How the data were processed

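ChIP-seq peak lists on ce11 were analysed for 2 replicates of 1 group. The values deposited by the authors were a signal on no stated scale, used for ranking, a −log10 q-value, tied at 3.16 over the IDR list and not used, and a summit position. The IDR list holds the 381 strongest peaks of the pooled list. The deposited file records derive a replicate's list from its own alignments plus 1 more file common to the pair, and the labels point to a possible control experiment. The aligner, caller and IDR cutoff were not given in the sources used here. Since no file gives read counts, depth is unknown and no interval was computed.

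Genes came from Ensembl 115 for WBcel235 and sequence from RefSeq. The RefSeq 5′ ends of the 4 genes were identical to the Ensembl ones. A summit within 300 bp of a 5′ end was assigned to that gene. Promoters were the 100 bp upstream, and the matrix used a pseudocount of 0.5. Copies were sought with blastn 2.17.0+ at an E-value of 1e-05, and each of the 4 genes had only its own hit. Of their promoters, that of rpr-1 had 1 other hit, of 52 bp at 80.8% identity. Computation used Python 3.11.15 and numpy 2.4.6, and the scan was tested on simulated promoters.

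The members, gene lists and tests were chosen with earlier results of these data known. Genes named were the 4 members, those at the peaks next in rank, those starting within 1 kb of a summit and the 3 strongest tRNA genes, with listed partner genes only where bound. Host and overlapping genes were named from the annotation alone, and sls-2.9 because it shares a peak with a named tRNA gene. Genes with the shared arrangement, the compared snRNA genes, rpl-15 and snpc-4 were named after their values were seen. Of the partner symbols, 4 of 11 RNase P and MRP, 4 of 5 Ro and La, 7 of 9 selenocysteine and 17 of 18 SNAPc and polymerase III symbols were found in the annotation.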

Additional observations from a re-analysis of the deposited data

How the results depend on the processing

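The count of 4 genes with a summit was unchanged at 150 bp, at 1000 bp and when the peak had only to overlap the gene. It was 3 within 50 bp, where K11H12.t1 was lost, and 3 in the upper 50% of the IDR list by signal, where yrn-1 was lost. Over the strongest 381 peaks of 1 replicate at a time it ranged from 3 to 4, the former without replicate 1, where yrn-1 was lost. The count of genes with the element, 2 of 4, fell to 1 (rpr-1) with the median of the matches as threshold and to 1 with exact matches only. It was 0 on the antisense strand, a check added after the data were seen. The matrix widened to 16 bp after the seed and the TATA window of 15 to 45 bp, also added later, left the counts at 2 and 4. Because read depth is unknown, precision within a replicate could not be stated. No paired analysis was possible because there is only 1 group.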

Other observations

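Of the 29 promoters with the shared arrangement of upstream letters, 18 had no IDR summit within 300 bp. By blastn, 8 of these 18 had a second copy in the genome (at least 90% identity over at least 80 bp), against 1 of the 11 with a summit. The 4 genes described above are among these 11 and were chosen as single copy, so their lack of a second copy was fixed beforehand. Without them the count is 1 of 7. The handling of reads that match several places is unknown, and its part in these counts was not tested. The unbound promoters included lfor-1 and the snRNA genes T08B6.62, Y17G9A.85 and Y17G9A.90, all of which hold the element. They also included the protein-coding genes hil-2 and hil-4, which encode linker histones. Of all 12 promoters with both the element and TATA letters, 6 had an IDR summit within 300 bp, those of rpr-1 and mrpr-1 included.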
